A study of Mus musculus with 12 samples.

Results

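The colony-stimulating factors, stem cell factor and their receptors were followed in the RNA of bone marrow-derived macrophages (BMDM). They comprised 4 ligand genes, *Csf1*, *Csf2*, *Csf3* and *Kitl*, and 5 receptor genes, *Csf1r*, *Csf2ra*, *Csf2rb*, *Csf2rb2* and *Csf3r*. These 9 genes were taken by symbol from the 43280 genes of the table, and 8 of them, all but *Csf2*, were among the 12086 genes that reached 1 CPM (a normalised read count, scaled to the library total) in at least 2 libraries and were tested. BMDM are macrophages grown in a dish from marrow cells of C57BL6 mice. The cells were wt or Treml4-/-, which lack the receptor gene *Treml4*, and all had been grown with 20 ng/ml M-CSF, the protein made from *Csf1*. They were then given vehicle (M0) or 100 ng/ml lipopolysaccharide (LPS), the bacterial wall component that drives M1 activation, for 8 h (M1-8 h) or 12 h (M1-12 h). The 6 conditions had 2 biological replicates each, 12 libraries in all. The labels do not say which animals the replicates came from, nor the age of the mice, so p-values measure the spread between these libraries only.

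M-CSF and its receptor Csf1r, a tyrosine kinase, keep macrophages alive and growing. GM-CSF (*Csf2*) binds a receptor made of Csf2ra and the shared beta chain Csf2rb, which also serves IL-3 and IL-5, and mice have a close copy, Csf2rb2, that pairs with the IL-3 receptor alpha chain. G-CSF (*Csf3*) acts through Csf3r and is best known for driving neutrophil production, while *Kitl* encodes stem cell factor, the ligand of the kinase Kit on blood progenitors and mast cells. LPS is known to move macrophages from M-CSF dependence towards producing cytokines, and the comparisons ask how the ligand and receptor genes changed with LPS and whether *Treml4* made a difference.

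Total reads ran from 48008751 to 58500792 per library, so that 1 read was worth 0.0171 to 0.0208 CPM. *Treml4* had between 198 and 663 reads in the 6 wt libraries and 0 in the 6 Treml4-/- libraries. The 9 macrophage markers used were all detected, and a further one written, *Adgre1*, was not found by that symbol. Their summed level was 15324 to 20455 CPM at M0 and 7615 to 11159 CPM after LPS. At 8 h 3 of them were called higher and 4 lower, where 17.1% and 59.8% of all tested genes were. At 12 h 3 were called higher and 5 lower, beside 16.3% and 60.3%. In the stromal and endothelial list 6 of 10 genes, in the lymphoid list 9 of 10, in the mast cell and basophil list 8 of 10, and in the dendritic list 4 of 8 stayed under 1 CPM in every library, and the neutrophil list summed to 98.7 to 517 CPM, mostly *Mmp8*. The mast cell and basophil sum was 1.63 to 2.86 CPM at M0 and 20.4 to 71.4 CPM after LPS, mostly *Hdc*, the histamine-forming enzyme, which was called higher (log2 change 5.22 at 8 h). The dendritic sum was 3.23 to 4.0 CPM at M0 and 16.7 to 31.6 CPM after LPS. Of its 4 tested genes 3, *Ccr7*, *Xcr1* and *Clec9a*, were called higher at both times, where 17.1% and 16.3% of all tested genes were. The remaining gene, *Batf3*, went the other way. It was called lower at 8 h (-0.62), where 59.8% of all tested genes were, and was not called at 12 h (-0.43). *Ccr7*, *Xcr1* and *Clec9a* averaged 0.143, 0 and 0.112 CPM at M0, and *Hdc* averaged 0.69 CPM. These genes entered the test through the LPS libraries, so they had to differ. The part of the marker lists in the LPS changes of the members was not tested. In bulk RNA, fewer cells of a type and less RNA per cell cannot be told apart. The scale of the comparison bears on every LPS result, because the median tested gene moved by -0.72 on the log2 scale at 8 h and by -0.76 at 12 h when libraries were set to the same total. The 100 most counted genes took 27.9 to 30.4% of the reads at M0, 32.4 to 33.5% at 8 h and 36.1 to 37.3% at 12 h. With median of ratios scaling, which centres the typical gene, the median change was -0.04 at both times.

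Regulatory sequence was read from RefSeq promoter windows of GRCm38.p6 for 6 of the 9 members, *Csf1*, *Csf2*, *Kitl*, *Csf2ra*, *Csf2rb2* and *Csf3r*. The promoters of the other members, *Csf3* among them, were not searched, so nothing can be said about their motifs. A kB consensus, the 10-base site that NF-kB factors bind, was searched on both strands in the 250 bases before each start. It was present in the windows of *Csf1*, *Kitl* and *Csf3r*, 3 of the 6, and in 7.25% of all 32851 windows of that length. These stretches are shown because these genes rose after LPS. Each line gives 30 bases on the gene's own strand with the match in capitals. In each of the 3 the consensus ran on the opposite strand, and the match did not overlap any other motif searched.
Csf1 (chr3:107760604-107760633, minus strand): gggccttgagGGAAAGTCCCtaggggccag
Kitl (chr10:100015659-100015688, plus strand): ccaacctctgGGAAGATCCCcgcccttcag
Csf3r (chr4:126024520-126024549, plus strand): ccctgaggcaGGAAGGTCCCtagctcacca
The matches lay 145 to 154 bases before the RefSeq start in *Csf1*, 143 to 152 in *Kitl* and 120 to 129 in *Csf3r*. In *Kitl* the match was inside an exon of the GENCODE M21 annotation, whose gene begins further upstream at chr10:100015630. A match of letters is a description and not a measured binding site.

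The other motifs searched were AP-1 (TGANTCA, in 6.75% of all windows), C/EBP (TTGCNNAA, 9.56%), the PU.1 core (GAGGAA, 23.3%), the CK-1 element (GAGATTCC, 0.755%), the CRE core (TGACG, 17.8%), TATAAA (12.4%) and the interferon response element ISRE by name (2.98%). *Csf3r* held 1 PU.1 core and *Csf2rb2* 1, and *Csf2ra* held 2 PU.1 cores and 3 CRE cores, of which 2 overlapped on opposite strands. *Kitl* held a TATAAA from 25 to 20 bases before its start, and *Csf2* a single C/EBP match. The *Csf2* window (chr11:54249900-54250149, minus strand) lay wholly upstream of the GENCODE M21 start at chr11:54249667. The bases directly before that start were thus not searched. The mRNA ends differed too. The AU-rich nonamer TTATTTATT, a known mark of short-lived cytokine mRNA, occurred 4 times, overlapping, in the 317-base 3' UTR of *Csf2* and not in the annotated 3' UTRs of the other 8 genes. It was present in 8.15% of the tested genes that had a 3' UTR, and 0.66% had 3 or more. The 30 bases that hold all 4 copies, with the copies in capitals, are shown because they set *Csf2* apart from the other ligands.
Csf2 (mouse chromosome 11, bases 232 to 261 of the 3' UTR): tttaaatatTTATTTATTTATTTATTTATT
The shorter pentamer ATTTA occurred 9 times in *Csf2*, 6 times in *Csf3*, 4 times in *Csf1* and 14 times in the 4435-base 3' UTR of *Kitl*, or 28.4, 8.97, 1.89 and 3.16 per kb, where the median tested gene had 1.32. The 3' UTRs of *Csf2ra*, *Csf2rb*, *Csf2rb2* and *Csf3r* held none.

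Among the ligands, *Csf1*, *Csf3* and *Kitl* rose after LPS and *Csf2* was at the detection limit. *Csf1* (chr3:107741048-107760469) stood at 0.733 and 0.531 CPM in wt M0 and at 0.815 and 0.636 CPM in Treml4-/- M0. At M1-8 h it was 12.5 and 16.7 CPM in wt and 13.3 and 11.5 CPM in Treml4-/-. At M1-12 h it was 16.2 and 17.9 CPM in wt and 14.9 and 15.8 CPM in Treml4-/-. All 8 LPS libraries lay far above all 4 M0 libraries, and the mean CPM was 19.9 times the M0 mean at 8 h and 23.9 times at 12 h. On the tested log2(CPM + 1) scale, which understates the change of low genes, the change over both genotypes was 3.10 (SE 0.10, adjusted p = 1.3e-10) at 8 h and 3.36 (SE 0.10, adjusted p = 7.5e-11) at 12 h (limma with Benjamini-Hochberg adjustment). *Csf1* entered the test through the LPS libraries and had to differ, so these p-values add no evidence. At M0, in cells grown on added M-CSF protein, *Csf1* had 27 to 40 reads per library.

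*Csf3* (chr11:98701263-98703629) went from absent to present. At M0 it had 0 reads in both wt libraries and in 1 Treml4-/- library and 1 read in the other. At M1-8 h it was 17.6 and 7.15 CPM in wt and 12.0 and 11.2 CPM in Treml4-/-. At M1-12 h it was 9.15 and 5.74 CPM in wt and 7.33 and 6.44 CPM in Treml4-/-. Every LPS library held 289 reads or more, and the wt M1-8 h replicates differed from each other more than the genotypes did. Against a floor of 3 reads per library, *Csf3* was at least 211-fold higher in wt at 8 h and at least 127-fold higher at 12 h. In Treml4-/- cells, where M0 had 1 read, the ratios were 1194 (95% exact interval 214 to 47178) and 702 (126 to 27765), which cover counting error only. On the log2(CPM + 1) scale the changes were 3.63 (SE 0.21, adjusted p = 1.4e-08) at 8 h and 3.01 (SE 0.21, adjusted p = 7.0e-08) at 12 h. *Csf3* too entered the test through the LPS libraries and had to differ, so these p-values add no evidence.

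*Csf1* and *Csf3* reached 1 CPM in 0 of 4 M0 libraries and in 8 of 8 LPS libraries, so they entered the test through the group in which they were high and had to differ. *Csf2* (chr11:54247271-54249667) had 1 read in wt M1-8 h replicate 2 and 0 in the other 11 libraries, so it was not tested. A count of 0 allows up to 3 reads, or 0.0513 to 0.0625 CPM, so a *Csf2* response below that level was not detectable at this depth. None of the 126-base stretches of *Csf2*, the length of 1 sequencing read, was shared with another gene.

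*Kitl* (chr10:100015630-100100416) was the only tested ligand with reads above 1 CPM in every library. It was 2.95 and 2.30 CPM in wt M0 and 4.18 and 4.58 CPM in Treml4-/- M0. It rose to 9.10 and 11.5 CPM in wt and to 16.7 and 25.9 CPM in Treml4-/- at M1-8 h. At M1-12 h it was 9.40 and 7.92 CPM in wt and 15.7 and 13.9 CPM in Treml4-/-. Within each genotype all LPS libraries lay above the M0 libraries, and at each of the 3 times both wt libraries lay below both Treml4-/- libraries. The LPS change was 1.83 (SE 0.14, adjusted p = 1.1e-07) at 8 h and 1.48 (SE 0.14, adjusted p = 7.3e-07) at 12 h, or 4.51 and 3.35 times the M0 mean in CPM. The stromal and endothelial markers, from cells known to make *Kitl*, summed to 3.31 to 6.06 CPM at M0 and 3.73 to 6.68 CPM after LPS, and at 8 h they were 5.51 and 6.68 CPM in wt and 4.48 and 4.97 CPM in Treml4-/-. Within the list *Cdh5* was called higher (0.86 at 8 h and 1.30 at 12 h) and *Pdgfrb* was called lower at 12 h (-0.92), and their part in the *Kitl* change was not tested. *Cdh5* averaged 0.451 CPM at M0, so it entered the test through the LPS libraries and had to differ.

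**Figure D1:**
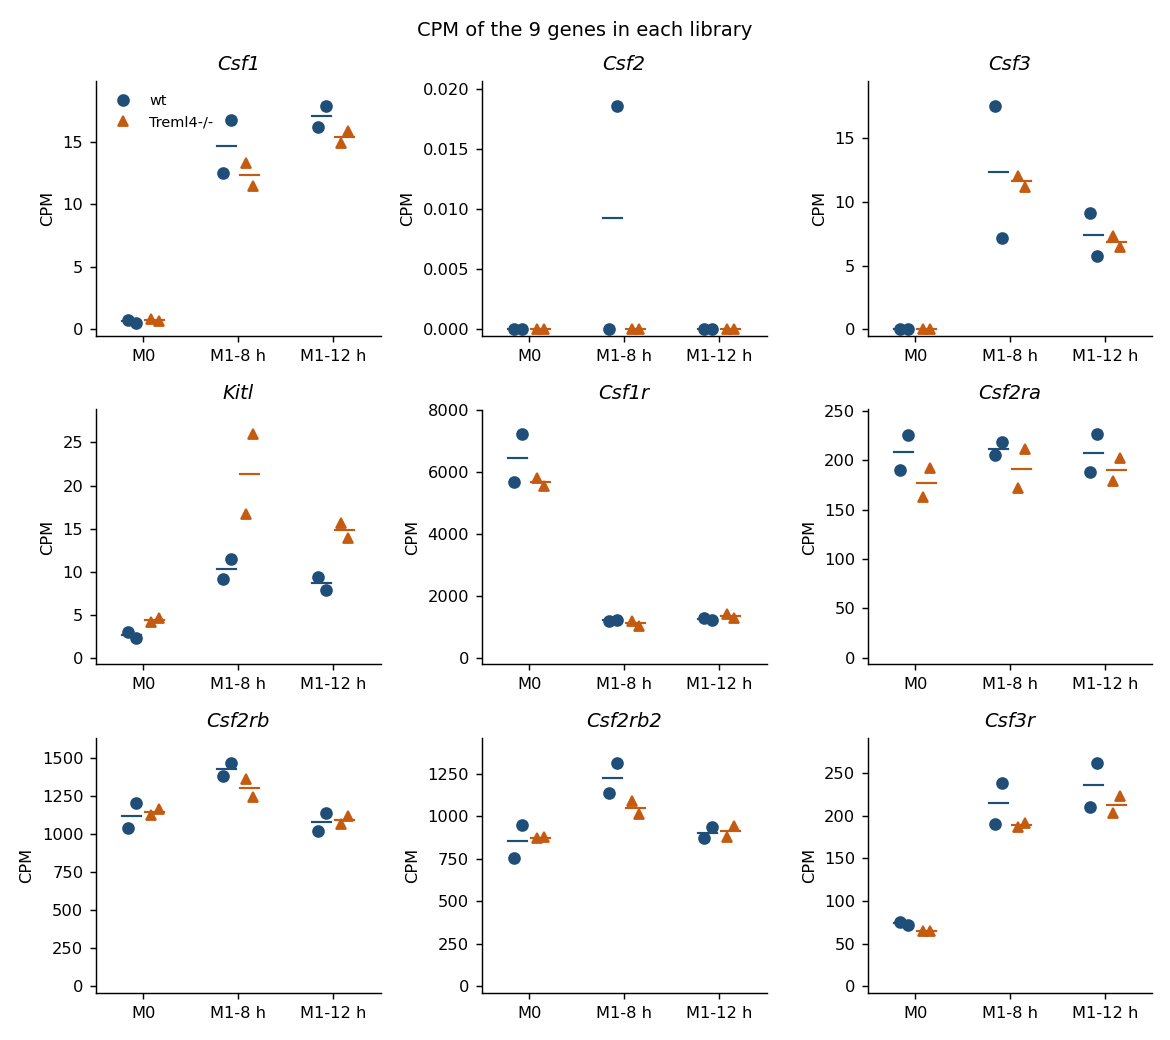
CPM (vertical axes, each from 0) of the 9 genes in each of the 12 libraries, by time of LPS, with wt as circles and Treml4-/- as triangles and the mean of 2 libraries as a line. *Csf1*, *Csf3*, *Kitl* and *Csf3r* sit higher in every LPS library than at M0, *Csf1r* sits lower, and *Csf2* shows a single read.

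Among the receptors, *Csf1r* fell and *Csf3r* rose, while *Csf2ra*, *Csf2rb* and *Csf2rb2* moved by less than 1.4-fold when read per total. *Csf1r* (chr18:61100598-61132149), the M-CSF receptor, was 5675 and 7203 CPM in wt M0 and 5786 and 5521 CPM in Treml4-/- M0. It was 1193 and 1219 CPM in wt and 1200 and 1037 CPM in Treml4-/- at M1-8 h. At M1-12 h it was 1266 and 1224 CPM in wt and 1399 and 1281 CPM in Treml4-/-. The M0 and LPS libraries did not overlap, and the LPS libraries of both times lay close together. The log2 change was -2.37 (SE 0.08, adjusted p = 1.9e-10) at 8 h and -2.22 (SE 0.08, adjusted p = 3.2e-10) at 12 h, leaving 0.192 and 0.214 of the M0 mean. The fall stood with median of ratios scaling too, at -1.57 and -1.37.

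*Csf3r* (chr4:126024550-126044440), the G-CSF receptor, was 75.4 and 72.4 CPM in wt M0 and 64.5 and 65.4 CPM in Treml4-/- M0. It was 190 and 239 CPM in wt and 187 and 191 CPM in Treml4-/- at M1-8 h, and 211 and 262 CPM in wt and 203 and 223 CPM in Treml4-/- at M1-12 h. All LPS libraries were above all M0 libraries, and the log2 change was 1.52 (SE 0.09, adjusted p = 9.5e-09) at 8 h and 1.68 (SE 0.09, adjusted p = 3.8e-09) at 12 h. Csf3r is a defining receptor of neutrophils, and the 10 neutrophil markers summed to 289 to 517 CPM at M0 and to 98.7 to 230 CPM after LPS, so their sum, most of it *Mmp8*, was lower where *Csf3r* was higher. Of the 9 tested, 6 were called lower at 8 h and 8 at 12 h, where 59.8% and 60.3% of all tested genes were. With median of ratios scaling 2 were called lower at 8 h and 6 at 12 h. *S100a8* went the other way, with a log2 change of 1.09 at both times on the CPM scale (adjusted p = 6.0e-04 and 5.7e-04). The part of the neutrophil markers in the *Csf3r* change was not tested. Of these markers, *Ly6g* was at or under 0.131 CPM in every library.

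*Csf2ra* (chr19:61223957-61228429), the GM-CSF-specific chain, was level on the CPM scale. It was 190 and 226 CPM in wt M0, 205 and 219 CPM at M1-8 h and 188 and 226 CPM at M1-12 h, and in Treml4-/- cells it was 163 and 192, 172 and 212, and 179 and 202 CPM at the same times. Within each genotype the libraries of the 3 times overlapped. The log2 change was 0.07 (95% interval -0.15 to 0.28, adjusted p = 0.51) at 8 h and 0.05 (-0.16 to 0.26, adjusted p = 0.63) at 12 h.

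*Csf2rb* (chr15:78325752-78353847) and its neighbour *Csf2rb2* (chr15:78282507-78305721) shared 235 of their 126-base stretches, 3.27% of those of *Csf2rb* and 4.77% of those of *Csf2rb2*, so a small share of their reads may be uncertain between them. None of the other 7 members shared any with another gene. *Csf2rb* was 1037 and 1201 CPM in wt M0, 1381 and 1466 CPM at M1-8 h and 1017 and 1134 CPM at M1-12 h, and 1122 and 1160, 1360 and 1242, and 1062 and 1118 CPM in Treml4-/- cells. All 4 libraries at M1-8 h lay above the other 8. The log2 change was 0.27 (SE 0.07, adjusted p = 0.0032) at 8 h and -0.06 (SE 0.07, adjusted p = 0.42) at 12 h. *Csf2rb2* was 754 and 951 CPM in wt M0, 1135 and 1315 CPM at M1-8 h and 870 and 938 CPM at M1-12 h, and 872 and 877, 1088 and 1013, and 881 and 944 CPM in Treml4-/- cells. It too was highest in the 4 libraries at 8 h. Its log2 change was 0.40 (SE 0.08, adjusted p = 7.3e-04) at 8 h and 0.08 (SE 0.08, adjusted p = 0.39) at 12 h. Both 8 h changes passed the p threshold and missed 1.4-fold. In wt alone the 8 h change of *Csf2rb2* was 0.53 (adjusted p = 0.0012) and reached 1.4-fold, and in Treml4-/- it was 0.26 (adjusted p = 0.053), but the difference between the genotypes was 0.26 with an adjusted p of 0.74.

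A gene was called where its adjusted p was under 0.05 and its fold change at least 1.4. At 8 h 4 members were called higher, where 17.1% of all tested genes were, and 1 lower, where 59.8% were. At 12 h the same members were called, again 4 higher against a background of 16.3% and 1 lower against 60.3%. Leaving out *Csf1* and *Csf3*, which had to differ, 2 of the other 6 tested members, *Kitl* and *Csf3r*, were called higher and 1, *Csf1r*, lower at both times. The 2 comparisons share the M0 libraries. Scaling changed the split. With median of ratios scaling all 8 tested members were called at both times, 7 higher and *Csf1r* lower, while the tested genes divided into 3759 higher and 3788 lower at 8 h in place of 2070 and 7225. *Csf2ra* then changed by 0.86 and 0.90, *Csf2rb* by 1.07 and 0.79 and *Csf2rb2* by 1.19 and 0.93 at 8 and 12 h. With quantile normalization *Csf2rb* at 8 h was -0.10 and *Csf2rb2* at 12 h was -0.23, so no direction is given for *Csf2ra*, *Csf2rb* and *Csf2rb2*. The calls of *Csf1*, *Csf3*, *Kitl*, *Csf3r* and *Csf1r* kept their direction under each scaling.

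**Figure D2:**
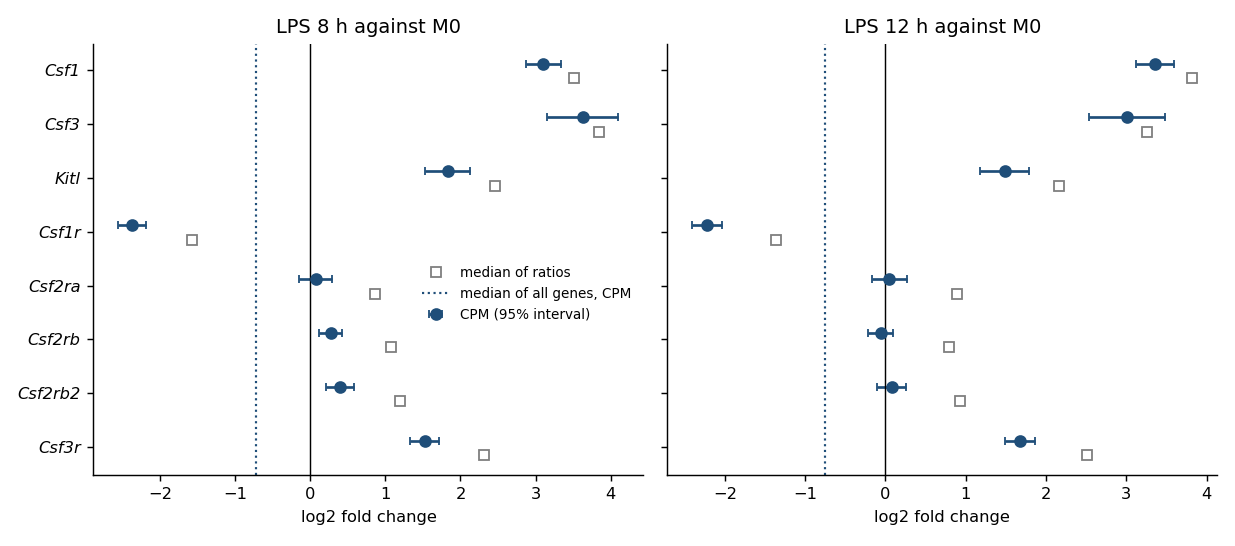
Log2 fold change (horizontal axis) of the 8 tested members at 8 h and 12 h of LPS against M0, with filled circles for CPM with 95% intervals and open squares for median of ratios scaling. The dotted line marks the median of all tested genes on the CPM scale, -0.72 and -0.76, and *Csf2ra*, *Csf2rb* and *Csf2rb2* lie near 0 for CPM and near 1 for median of ratios.

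Between 8 h and 12 h, *Csf3* was the only member called, lower by a log2 change of -0.63 (SE 0.21, adjusted p = 0.026), where 18.7% of tested genes were called lower and 13.5% higher. This call was not stable. Without wt M1-8 h replicate 1, the highest *Csf3* library, the change was -0.33 (adjusted p = 0.062). It was also lost without wt M1-12 h replicate 2 (-0.48, adjusted p = 0.10), Treml4-/- M1-8 h replicate 1 (-0.60, adjusted p = 0.062) or Treml4-/- M1-12 h replicate 2 (-0.59, adjusted p = 0.077). *Kitl* changed by -0.34 (adjusted p = 0.048), *Csf2rb* by -0.33 (adjusted p = 0.0017) and *Csf2rb2* by -0.32 (adjusted p = 0.0061), each under 1.4-fold, and without Treml4-/- M1-8 h replicate 1 *Kitl* reached -0.50 (adjusted p = 0.0051) and was called. *Csf1* (0.26, adjusted p = 0.055), *Csf1r* (0.15, adjusted p = 0.13) and *Csf3r* (0.15, adjusted p = 0.14) missed the threshold.

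Levels of different genes were compared per length, as CPM per kb of the gene's joined GENCODE M21 exons. At M0 *Csf1r* was highest with a median of 993 CPM per kb (956 to 1248 in the 4 libraries). *Csf2rb2* (159 to 201) and *Csf2rb* (143 to 165) followed and overlapped each other, then *Csf2ra* (56.7 to 78.8) and *Csf3r* (17.9 to 20.9). The ligands lay far below, with *Kitl* at 0.389 to 0.775 and *Csf1* at 0.101 to 0.154 CPM per kb.

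After 8 h of LPS *Csf2rb2* (214 to 277) was above *Csf1r* (180 to 211), and *Csf1r* overlapped *Csf2rb* (171 to 201). *Csf3r* (51.8 to 66.1) now overlapped *Csf2ra* (59.8 to 76.2). *Csf3* (5.06 to 12.4) was the highest ligand, with *Csf1* (2.18 to 3.17) and *Kitl* (1.54 to 4.39) overlapping below it. At 12 h *Csf1r* (212 to 242) was above *Csf2rb2* (184 to 199) and *Csf2rb* (140 to 156), and the ligand order was *Csf3* (4.06 to 6.48), *Csf1* (2.82 to 3.39) and *Kitl* (1.34 to 2.65) with no overlap.

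**Figure D3:**
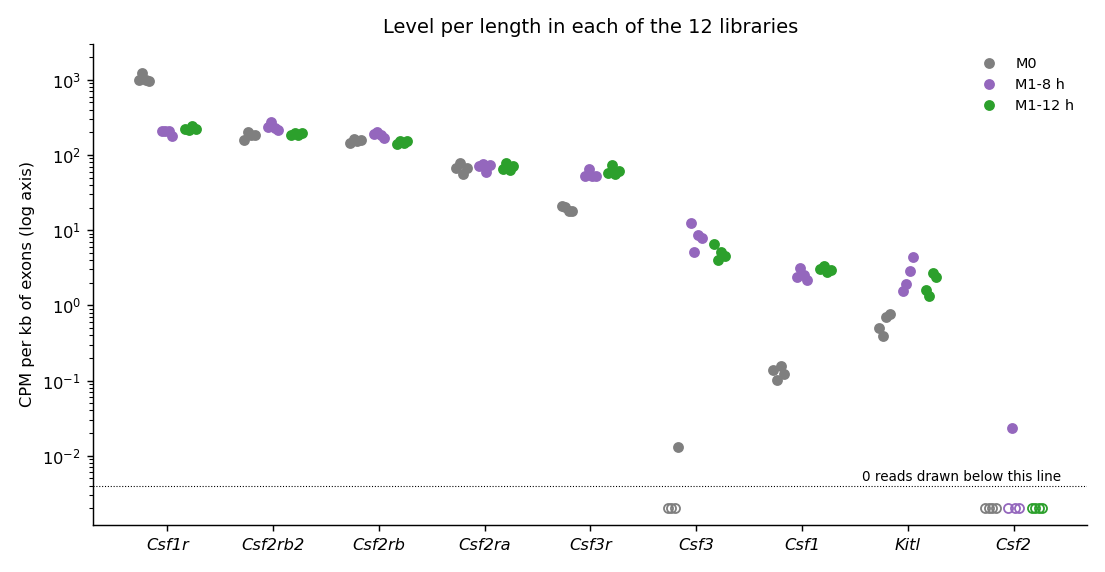
Level of each gene per kb of exons (log axis), with 4 libraries at each time of LPS and open circles below the dotted line for libraries at 0 reads. *Csf1r* drops from a median of 993 at M0 to between 180 and 242 after LPS, and the ligands stay below 13 at all times.

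Between genotypes, *Kitl* was the member with the largest difference and no member was called at a single time. At each time 0 of the 8 members passed limma's test, against 0.0993% of all tested genes before LPS, 0.091% after 8 h and 0.132% after 12 h, and voom, limma's method for counts, on the recovered reads also called 0. With DESeq2 at the same thresholds the paper reported more genes between genotypes after LPS than limma called here. A count of 0 therefore does not show that there was no difference. At an unadjusted p under 0.05, 1 member stood at each time, and it was *Kitl*, where 3.35% of all tested genes stood before LPS, 21.0% after 8 h and 7.55% after 12 h. Its wt minus Treml4-/- log2 difference was -0.57 (SE 0.19, adjusted p = 1) before LPS, -0.96 (SE 0.19, adjusted p = 0.10) after 8 h and -0.71 (SE 0.19, adjusted p = 0.28) after 12 h. Without Treml4-/- M1-8 h replicate 1 the 8 h difference was -1.26 (adjusted p = 0.015) and was called, and without Treml4-/- M1-8 h replicate 2, the library with the highest *Kitl*, it was -0.65 (adjusted p = 0.66).

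Averaged over the 3 times, a comparison chosen after seeing the data, the *Kitl* difference was -0.75 (95% interval -0.995 to -0.501, adjusted p = 0.015), and *Kitl* was the 1 member called, where 0.414% of tested genes were. The call was lost without wt M1-12 h replicate 2 (adjusted p = 0.067), Treml4-/- M0 replicate 1 (0.062), Treml4-/- M0 replicate 2 (0.071) or Treml4-/- M1-12 h replicate 1 (0.079), with differences of -0.71, -0.77, -0.73 and -0.72. *Kitl* was lower in all 6 wt libraries than in the Treml4-/- libraries of the same time. The same was true of 306 tested genes, 2.53%, and at 8 h alone 33.9% of tested genes had both wt libraries below both Treml4-/- libraries. *Kitl* was chosen with earlier results of these data known, so its direction is not independent evidence.

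The other 7 tested members differed between genotypes by -0.10 to 0.23 on the log2 scale at each time, and the 95% intervals of all 7 included 0 at all 3 times. At M0 *Csf3* had 0 reads in wt and 1 in Treml4-/-, so its comparison there could not show a difference. Averaged over the times, *Csf3r* was 0.17 higher in wt (95% interval 0.01 to 0.32, adjusted p = 0.23). The intervals bound what these libraries can show. For *Csf1r* at M1-8 h the difference lay between -0.15 and 0.37, for *Csf1* between -0.11 and 0.54, and for *Csf3*, whose replicates spread most, between -0.71 and 0.63. Whether the LPS response itself differed was tested directly. At 8 h and at 12 h 0 of 8 members were called by limma, 0 stood at an unadjusted p under 0.05, and voom called 0, against 0.00827% of all tested genes called at each time and 6.67% and 3.82% at the unadjusted p. For *Kitl* this difference of responses was -0.38 (95% interval -0.99 to 0.22, adjusted p = 0.75) at 8 h and -0.14 (-0.74 to 0.47, adjusted p = 1.00) at 12 h.

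**Figure D4:**
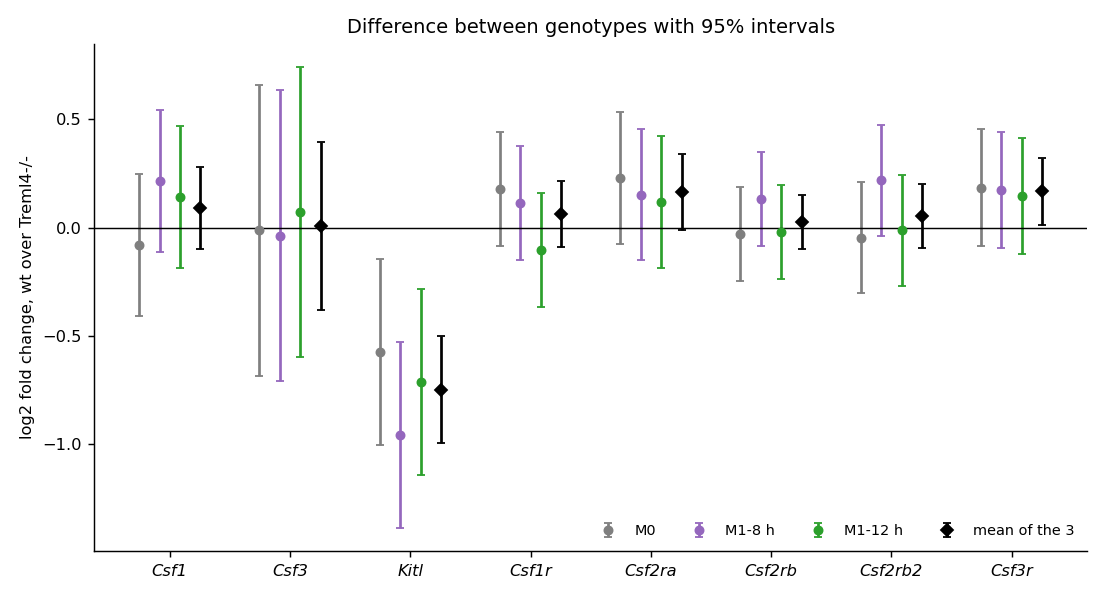
Log2 fold change of wt over Treml4-/- (vertical axis) for the 8 tested members at each time and as the mean of the 3 times, with 95% intervals. *Kitl* lies below 0 at each time, between -0.57 and -0.96, and the intervals of the other genes include 0 at each single time.

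The partner genes of these ligands and receptors were mostly silent. Of 11 written partner genes 2 were tested, *Flt3l*, a growth factor for dendritic cell progenitors, and *Il3ra*, the IL-3 receptor alpha chain. Both were called lower at 8 h, with log2 changes of -0.57 (adjusted p = 1.6e-04) and -0.54 (adjusted p = 2.6e-05), and neither at 12 h. Of all tested genes 59.8% were called lower at 8 h and 60.3% at 12 h. With median of ratios scaling neither was called at 8 h, *Il3ra* turned positive at both times and was called higher at 12 h (0.59), and *Flt3l* turned positive at 12 h (0.32). *Il34*, the other ligand of Csf1r, reached at most 0.91 CPM, with a mean of 0.786 ± 0.151 CPM (SD, n = 4) at 8 h, 0.0149 ± 0.0189 at M0 and 0.158 ± 0.044 at 12 h. *Kit*, the receptor of the *Kitl* product, stayed at 0.0959 to 0.667 CPM.

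Genes that act directly below these receptors moved in both directions. Of 23 signalling genes 10 were called higher and 6 lower at 8 h, with a median change of 0.26 beside -0.72 for all genes, and 10 higher and 9 lower at 12 h. Of all tested genes 17.1% were called higher and 59.8% lower at 8 h, and 16.3% and 60.3% at 12 h. With median of ratios scaling the split was 17 and 2 at 8 h. The kinase *Jak2*, which works with Csf2rb and Csf3r, rose by 4.42 (adjusted p = 2.4e-11), and the transcription factor *Stat3* rose by 2.51 (adjusted p = 4.8e-11). The Src-family kinase *Lyn* rose by 2.19 (adjusted p = 1.6e-10).

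Of 12 tested attenuators, which switch the receptors off, 6 were called higher and 3 lower at 8 h, and 9 higher and 2 lower with median of ratios scaling. On the CPM scale 17.1% of all tested genes were called higher and 59.8% lower at 8 h. The feedback inhibitors *Socs1*, *Socs3* and *Cish* rose by 6.96, 6.32 and 3.23 (adjusted p = 2.8e-14, 2.6e-14 and 1.9e-10), and the lipid phosphatase *Inpp5d* changed by -2.68 (adjusted p = 3.2e-10). *Socs1* and *Cish* averaged 0.561 and 0.632 CPM at M0. They entered the test through the LPS libraries, so they had to differ. At 12 h 4 attenuators were higher and 3 lower, beside 16.3% and 60.3% of all tested genes. Of 12 transcription factors known to act on *Csf1r* or in its lineage, 5 were higher and 6 lower at both times, 5 and 3 at 8 h with median of ratios scaling. *Cebpa* changed by -5.04 (adjusted p = 5.7e-12), *Fli1* by -3.37 (1.6e-09), *Egr2* by -3.02 (2.3e-09) and *Ets2* by 3.10 (2.4e-11), each in the same direction under all scalings.

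The 5 genes of receptor shedding, the process by which proteases cut Csf1r from the cell surface, held 2 called higher and 2 lower at 8 h. For this and the next 2 lists the shares of all tested genes at 8 h were 17.1% higher and 59.8% lower. The protease *Adam17* was not called (0.12, adjusted p = 0.25), while its partners *Rhbdf2* and *Rhbdf1* changed by 2.06 (adjusted p = 3.2e-11) and -1.93 (adjusted p = 9.1e-10), the related protease *Adam10* by -1.67 (adjusted p = 1.7e-08) and the inhibitor *Timp3* by 0.55 (adjusted p = 0.0071). *Rhbdf1* averaged 4.86 CPM at M0 and 0.541 CPM at 8 h, and *Timp3* 0.228 and 0.85 CPM. Both entered this comparison through the group in which they were high and had to differ, so their p-values add no evidence. Of 10 genes of AU-rich mRNA decay 4 were higher and 4 lower, 6 and 2 with median of ratios scaling. Their largest changes were 2.71 (adjusted p = 5.0e-11) for *Zfp36*, -2.52 (adjusted p = 5.1e-09) for *Zfp36l2*, -1.32 (adjusted p = 1.4e-09) for *Khsrp* and 1.10 (adjusted p = 1.0e-08) for the RNase *Zc3h12a*. Of 8 tested genes known to respond to GM-CSF 4 were higher and 4 lower, 4 and 1 with median of ratios scaling. *Ccl22* rose by 4.76 (adjusted p = 2.8e-09), *Cish* by 3.23 and the kinase *Pim1* by 2.72 (adjusted p = 6.1e-12), and *Pparg*, a lipid-sensing nuclear receptor, changed by -4.50 (adjusted p = 1.8e-12), in cells with almost no *Csf2* reads. *Cish* (0.632 CPM at M0) and *Pparg* (36.9 CPM at M0, 0.677 CPM at 8 h) entered this comparison through the group in which they were high. None of the genes in these 7 lists was called between the genotypes at 8 h, where 0.091% of all tested genes were.

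**Figure D5:**
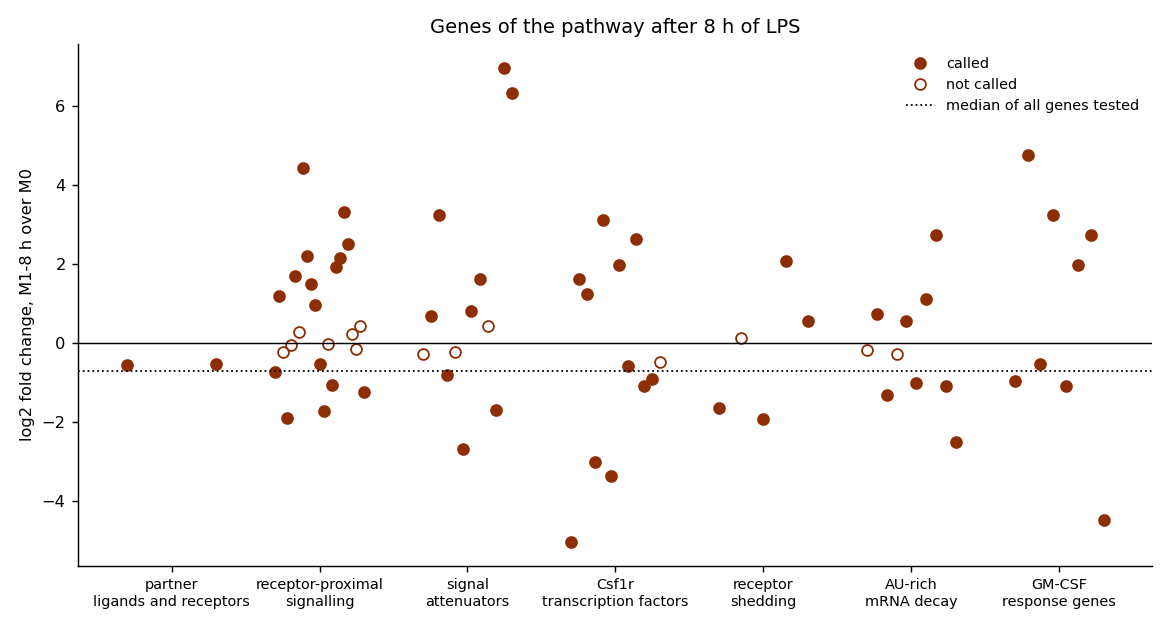
Log2 fold change at M1-8 h over M0 (vertical axis) of the tested genes in the 7 pathway lists, mean over both genotypes, with filled points called and open points not. The dotted line is the median of all tested genes, -0.72, and *Socs1* at 6.96 and *Cebpa* at -5.04 are the extremes.

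The genes most like each member across the 12 libraries were named by Pearson's r of log2(CPM + 1), a description in which libraries share condition and depth. *Csf1* was closest to *Pou3f1*, *Psme2* and *Dnase1l3* (r = 0.998 each), and *Csf1r* to *Ctnnbip1*, *Daglb* and *Mtfr1l* (0.998 each), but 771 and 3235 other genes had an r over 0.95 with them, so the likeness separates few. *Csf3* was closest to *Cyfip1* and *Lyn* (0.994) and *Il10* (0.993), and *Csf3r* to *Pgap2* (0.998), *C130026I21Rik* (0.996) and *Bambi-ps1* (0.995). *Kitl* stood more alone, with 26 genes over 0.95, led by *Pafah1b1* (0.975), *Zdhhc2* (0.971) and *Gm13772* (0.970). *Csf2rb* was closest to *Diap1* (0.957), *Nuak2* (0.948) and *Bahd1* (0.945), and *Csf2rb2* to *Trip10* (0.961), *Lrrc32* (0.956) and *H2-DMb1* (0.948), while the neighbours *Csf2rb* and *Csf2rb2* had an r of 0.934 with each other. *Csf2ra* had no gene over 0.95, and *Jund* (0.717), *Crlf2* (0.713) and *Gm11696* (0.666) came closest.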

How the data were processed

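RNA was sequenced after poly(A) selection as stranded 126-base read pairs. STAR alignment and Subread counting by the authors gave the deposited log2 CPM, which hold a prior of 0.25 reads, and per the labels the build was mm10. The strand setting of the counting is not given in the sources used here. The authors called genes with DESeq2. Removing the prior gave whole reads (within 0.01) for 100% of values. Since the values are normalized, limma 3.58.1 (R 4.3.3) was fitted to log2(CPM + 1) over all 12 libraries, with a mean for each condition and a variance trend. The design had assumed CPM. The 12086 genes with at least 1 CPM in 2 libraries were tested, with Benjamini-Hochberg adjustment, and called at an adjusted p under 0.05 and 1.4-fold. LPS comparisons are means over both genotypes. The test was run on simulated data. Positions, exon lengths, 3' UTRs and 126-base stretches came from GENCODE M21 (GRCm38), promoters from RefSeq. Members and lists were chosen with earlier results of these data known. From each list the 4 called genes with the largest change were named, plus *Il34*, *Kit*, *Flt3l*, *Il3ra* and *Adam17*, with 3 like-patterned genes per member, and 1 gene named by this rule is not reported here. Alternatives covered pseudocount, filter, scaling, trend, replicate blocks, voom, comparison libraries alone and each replicate left out. Python 3.11.15 was used.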

Additional observations from a re-analysis of the deposited data

How the results depend on the processing

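The count of members called did not move by over 1.5 times with a pseudocount of 0.1, a filter at 5 CPM, quantile normalization, no trend or voom. With median of ratios scaling 8 members were called at both LPS times. Without a filter on low values, 0 were called between 12 h and 8 h and 0 in the mean over the 3 times, and with only the libraries of the comparison 0 were called between 12 h and 8 h. Leaving out single replicates gave 0 to 1 members in each of these 2 comparisons and 0 to 1 between genotypes at M1-8 h. Values that changed direction belonged to *Csf2ra*, *Csf2rb* and *Csf2rb2*, which were not called in CPM. With median of ratios scaling they were *Csf2rb* at 12 h against M0 (0.79) and *Csf2ra* at 12 h against 8 h (0.031). With quantile normalization they were *Csf2rb* at 8 h (-0.10), *Csf2rb2* at 12 h (-0.23) and *Csf2ra* at 12 h against 8 h (0.092). Leaving out single replicates gave *Csf2ra* changes from -0.0055 to 0.14 at 8 h, -0.016 to 0.12 at 12 h and -0.095 to 0.055 between them, and *Csf2rb2* changes from -0.0068 to 0.16 at 12 h. Same-numbered libraries did not deviate together throughout, with correlations of -0.264, 0.297 and 0.0563 between genotypes at M0, 8 h and 12 h and of -0.272 to 0.462 within genotypes, so the numbers were not used as pairs. With the replicate block by number the calls kept their counts of 5, 5, 1 and 0, *Kitl* at 8 h had an adjusted p of 0.113, and its mean difference an adjusted p of 0.018. With a random replicate block within genotype, 36 genes were called in the mean over the 3 times in place of 50, *Kitl* among them (adjusted p = 0.023). With 2 libraries per condition and 27 to 40 *Csf1* reads at M0, changes of low genes carry counting error. The causes of these movements were not tested.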
